A study of Homo sapiens with 10 samples.

Results

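Fatty acids are built in the cytosol from citrate that leaves the mitochondria. ACLY cleaves the citrate to acetyl-CoA, the acetyl-CoA carboxylases ACACA and ACACB make malonyl-CoA from it, and FASN joins these units to palmitate, which ELOVL6 elongates and SCD desaturates. SREBF1 and SREBF2 encode the transcription factors that drive this pathway and sterol synthesis, INSIG1 holds their precursors in the endoplasmic reticulum, and LPIN1 takes phosphatidic acid on towards triglycerides. Breast cancer cells with amplified ERBB2, the gene of the receptor HER2, are known for high levels of FASN. The 10 genes named here were taken as a fixed list, and they are 10 of the 20163 protein-coding genes of the annotation. For each gene, the gene body with 50 kb on each side, called its window, was read for enhancer mark and for HER2 binding.

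The series held 10 samples of 2 established cell lines, SKBR3 and BT474, both from human breast cancers that carry extra copies of ERBB2. HER2 on chromatin was mapped by ChIP-exo, in which an exonuclease trims the antibody-bound DNA, with 1 sample each of SKBR3 after vehicle, SKBR3 after EGF, BT474 after vehicle and BT474 after EGF. The vehicle was water, and EGF, a ligand of the receptor partner EGFR, was given at 100 ng/ml for 3 hours without serum deprivation. H3K4me1, the monomethylation of lysine 4 of histone H3 that marks enhancers and the flanks of promoters, was mapped by ChIP-seq in 2 samples of each line, whose labels call the cells asynchronous while the study's text calls them EGF-treated. The 2 input samples were not analysed here. Nothing states that replicates were separate cultures, so p-values measure the spread between these samples, which may be technical.

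The H3K4me1 data were islands, stretches of enriched signal, each with its count of reads. The libraries held 15097245 to 18714089 reads in 70251 to 96293 islands. The HER2 lists held 2596 (SKBR3 vehicle), 2520 (SKBR3 EGF), 8559 (BT474 vehicle) and 29326 peaks (BT474 EGF) without reads, so their depth is unknown and treatments cannot be tested. At the epithelial marker EPCAM and at ERBB2 itself, the 2 kb around the start lay wholly in islands in all 4 H3K4me1 libraries, and at PTPRC, a marker of blood cells, no island was listed there. The wider PTPRC window was not bare, with 27.2 and 26.4% in islands in SKBR3 and 11 and 11.9% in BT474, and held more reads in SKBR3 (log2 fold change 1.5, edgeR adjusted p = 0.000329). The other epithelial markers were less even, since KRT8 and GATA3 had no island at the start in SKBR3. KRT19 had none there in BT474 replicate 1. Markers of basal cells (KRT5, KRT14) and mesenchymal cells (VIM) were not all bare. Islands covered 45.7 to 55.7% of the 2 kb around the KRT5 start across the 4 libraries. At VIM they covered 51.97 and 91.95% in BT474, and no island was listed in SKBR3. The KRT14 window held more reads in SKBR3 (log2 fold change 1.98, edgeR adjusted p = 9.92e-05). The markers thus do not sort cell types cleanly. All values are averages over the cells of a culture, so more cells with the mark and more mark per cell cannot be told apart.

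Within these windows, H3K4me1 islands took a larger share of the bases than at the usual gene. The median cover of the 10 windows was 21.5 and 22.2% in the SKBR3 libraries and 23.4 and 22.4% in the BT474 libraries, beside 11.4, 12, 12.7 and 12.1% for all protein-coding genes. The range was wide, from 2.49% for ACACA in SKBR3 replicate 2 to 86.9% for the same gene in BT474 replicate 1. Both SKBR3 libraries had more cover than both BT474 libraries at 3 of 10 members, ACLY, ELOVL6 and LPIN1, beside 36.5% of all genes. Both BT474 libraries had more at 4 of 10, FASN, ACACA, SCD and INSIG1, beside 41.7% of all genes. The libraries of the lines overlapped at ACACB, SREBF1 and SREBF2. With 2 libraries against 2, an exact permutation test cannot give a p below 0.333, so no p is given for cover.

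**Figure D1:**
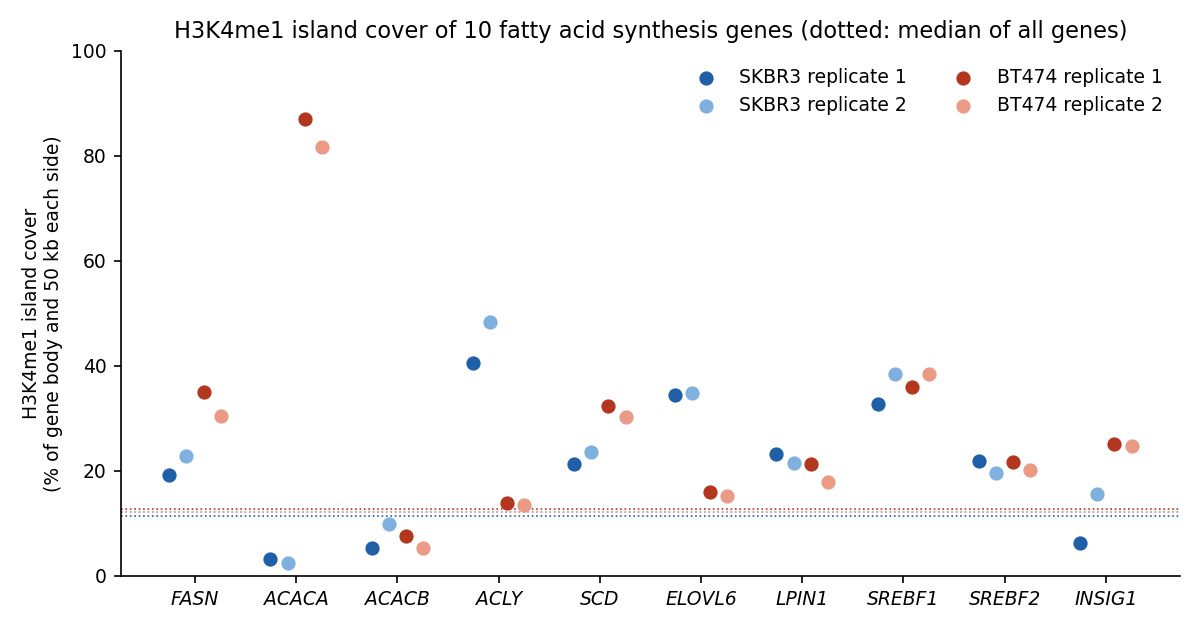
H3K4me1 island cover (y axis, percent of the gene body and 50 kb on each side) of the 10 genes (x axis) in each of the 4 libraries, 1 point per library, with dotted lines at the median of all protein-coding genes in each library. ACACA ranged from 2.49% in SKBR3 to 86.9% in BT474, while the points of both lines lie among each other at SREBF1 and SREBF2.

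The reads in the windows were compared between lines with edgeR's quasi-likelihood test, fitted to 18845 genes with Benjamini-Hochberg adjustment over all of them and called at an adjusted p under 0.05. Of the 10 members, 2 were higher in SKBR3 (ACLY and ELOVL6), beside 34.3% of all genes tested. In BT474, 4 were higher (FASN, ACACA, SCD and INSIG1), beside 38.0% of all genes tested. ACACB, LPIN1, SREBF1 and SREBF2 were not called. These shares lie near those of all genes, so the number of members called is not a result about fatty acid synthesis. The median log2 fold change (SKBR3 minus BT474) was 0.0043 for the members and -0.11 for all genes, and the median size of the change without its sign was 0.95 and 0.91. The sizes at single genes were very unequal, as follows.

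**Figure D2:**
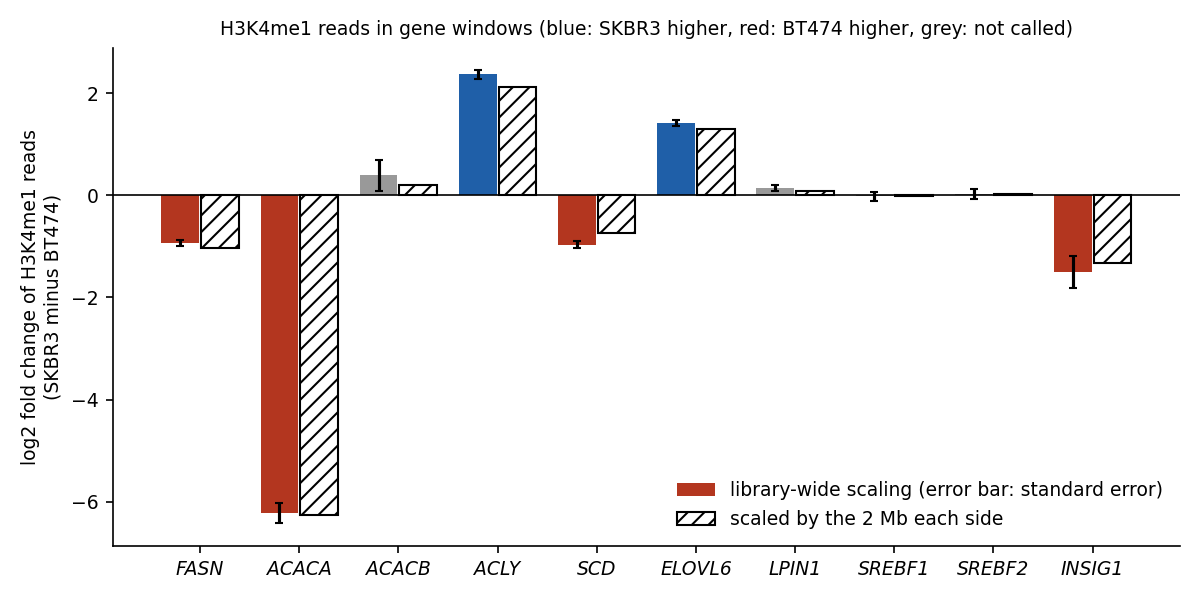
The log2 fold change of H3K4me1 island reads (y axis, SKBR3 minus BT474) for each of the 10 genes (x axis), with library-wide scaling (filled, error bars are standard errors derived from edgeR's F statistic) and with scaling by the read density in the 2 Mb on each side (hatched). ACACA reached -6.22 and ACLY 2.36, and all 6 called genes kept their direction under the local scaling.

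ACLY, which supplies the acetyl-CoA, had the strongest SKBR3 side of the list. Its window, around chr17:40023170-40086795 (hg19, minus strand), held 4948 and 5555 reads in the SKBR3 libraries and 1340 and 1124 in the BT474 libraries. Each SKBR3 library was above each BT474 library, by a log2 fold change of 2.36 ± 0.080 (SE, n = 2 per line, edgeR adjusted p = 9.46e-05), or 5.15-fold. Cover was 40.6 and 48.3% in SKBR3 against 13.9 and 13.4% in BT474. The contrast was steepest in the 50 kb before the gene, with 68.4 and 80.4% covered in SKBR3 and 19.2 and 16.4% in BT474. Of the window, 37 kb lay in islands of both SKBR3 libraries and of no BT474 library, while no base showed the reverse. An island of 24.2 kb in SKBR3 replicate 2 ran from 29.8 to 5.6 kb before the start of the main transcript.

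The carboxylases, which make malonyl-CoA, gave the widest contrast of the list between closely related genes. ACACA (chr17:35441927-35766927, minus strand, a gene whose place in the annotation was only partly carried over to hg19) held 493 and 345 reads in SKBR3 and 42076 and 33618 in BT474. The log2 fold change was -6.22 ± 0.20 (SE, n = 2 per line, edgeR adjusted p = 8.64e-05), or 74.5-fold higher in BT474, and 7.59% of genes tested had a larger change. These are island reads only, since reads outside called islands are not in the lists. Cover was 84.3% ± 3.79 (SD, n = 2) in BT474 and 2.82% ± 0.466 in SKBR3. Only 0.347 and 0.357% of genes had more cover than ACACA in the BT474 libraries, whereas 76.5 and 79.4% did in the SKBR3 libraries. In BT474 the mark was nearly continuous, with single islands of 121.2 and 147.6 kb over the 3′ part of the gene, while the longest SKBR3 islands were 4 and 3.8 kb. Islands of both BT474 libraries and neither SKBR3 library covered 304.3 kb, or 71.6% of the window.

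ACACB (chr12:109554392-109706031, plus strand), whose enzyme sits at the mitochondrial membrane and restrains fatty acid oxidation, was sparsely marked in both lines. Its window held 494 and 841 reads in SKBR3 and 778 and 471 in BT474, and the lines overlapped (log2 fold change 0.39 ± 0.30 SE, n = 2 per line, edgeR adjusted p = 0.296). The SKBR3 replicates differed from each other as much as the lines did. Without SKBR3 replicate 1 the log2 fold change was 0.70 with an edgeR adjusted p of 0.0204, and without SKBR3 replicate 2 it was -0.03 with an adjusted p of 0.893. The gene body was nearly bare, with 0.797 to 2.78% in islands across the 4 libraries, and most of the islands stood in the flanks.

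FASN, the synthase itself (chr17:80036214-80056170, minus strand), held 1095 and 1170 reads in SKBR3 and 2975 and 2277 in BT474. All BT474 values were above all SKBR3 values, with a log2 fold change of -0.93 ± 0.067 (SE, n = 2 per line, edgeR adjusted p = 0.000461). The gene body had no island in either SKBR3 library, and islands over 17 and 12% of it in BT474. The bulk of the mark lay before the gene. There, an island of 12.6 to 13.0 kb, ending 0.69 to 0.89 kb short of the start of the main transcript, was called in all 4 libraries with nearly equal ends. It held 711 and 669 reads in SKBR3 and 1539 and 1259 in BT474. The size of the difference depended on the window, since with flanks of 100 kb the log2 fold change was -0.21 (edgeR adjusted p = 0.0142).

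ELOVL6 and SCD, which act on palmitate after FASN, leaned to opposite lines. ELOVL6 (chr4:110967002-111120355, minus strand) held 4151 and 3967 reads in SKBR3 and 2068 and 1638 in BT474 (log2 fold change 1.41 ± 0.061 SE, n = 2 per line, edgeR adjusted p = 0.000151). Within its body, 52.6 and 49.4% lay in islands in SKBR3 and 21.3 and 20.5% in BT474, and 38.6 kb of the window was covered in both SKBR3 libraries and neither BT474 library. SCD (chr10:102106990-102124583, plus strand) held 781 and 807 reads in SKBR3 and 2104 and 1664 in BT474 (log2 fold change -0.97 ± 0.068 SE, n = 2 per line, edgeR adjusted p = 0.000442). The body of SCD was among the most fully marked of the list, with 80.6 and 78.4% covered in SKBR3 and 94.3 and 89.7% in BT474, so the lines differed more in reads than in the stretch covered.

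The regulators SREBF1 and SREBF2 did not differ between the lines beyond the spread of the replicates. SREBF1 (chr17:17713713-17740316, minus strand) held 1720 and 1960 reads in SKBR3 and 2458 and 2050 in BT474, before scaling for depth. Its log2 fold change was -0.02 ± 0.084 (SE, n = 2 per line, edgeR adjusted p = 0.842), and 70.7 to 86.0% of its body was covered across the 4 libraries. SREBF2 (chr22:42229109-42303310, plus strand) held 1556 and 1380 reads in SKBR3 and 1875 and 1602 in BT474, with a log2 fold change of 0.03 ± 0.095 (SE, n = 2 per line, edgeR adjusted p = 0.80). A p that misses the threshold does not show equal levels. Within the body of SREBF2 alone, a small difference was called (log2 fold change 0.33, edgeR adjusted p = 0.0235, higher in SKBR3).

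INSIG1 (chr7:155089486-155101945, plus strand), which retains the SREBF products in the endoplasmic reticulum, held 270 and 510 reads in SKBR3 and 1474 and 1199 in BT474. The log2 fold change was -1.50 ± 0.31 (SE, n = 2 per line, edgeR adjusted p = 0.011). The value stayed at -1.52 without BT474 replicate 1 and -1.49 without BT474 replicate 2, with adjusted p of 0.0515 and 0.0541, so the call was lost without either of them. It held without SKBR3 replicate 1 (-1.14, adjusted p = 0.000365) and without SKBR3 replicate 2 (-2.02, adjusted p = 9.58e-05). The SKBR3 replicates stood apart, with 6.22 and 15.7% of the window covered, while BT474 had 25.1 and 24.7%. In the 50 kb after the gene no island was listed in SKBR3, and 12.8 and 15.3% was covered in BT474.

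LPIN1 (chr2:11817721-11967535, plus strand) had flanks that leaned to opposite lines, and its whole window was not called. The reads in its window, 2399 and 2306 in SKBR3 and 2948 and 2231 in BT474, gave a log2 fold change of 0.14 ± 0.066 (SE, n = 2 per line, edgeR adjusted p = 0.113). Before the gene, 12.6 and 4.64% of the 50 kb was covered in SKBR3 and 41.0 and 33.8% in BT474. After the gene the order was reversed, with 23.2 and 18.4% in SKBR3 and 4 and 5.6% in BT474. Over the gene body alone LPIN1 was called higher in SKBR3 (log2 fold change 0.55, edgeR adjusted p = 0.0127), and likewise with flanks of 10 kb (0.50, adjusted p = 0.00723). These opposite flanks, and the other windows, can be seen in the map of islands by distance from the start.

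**Figure D3:**
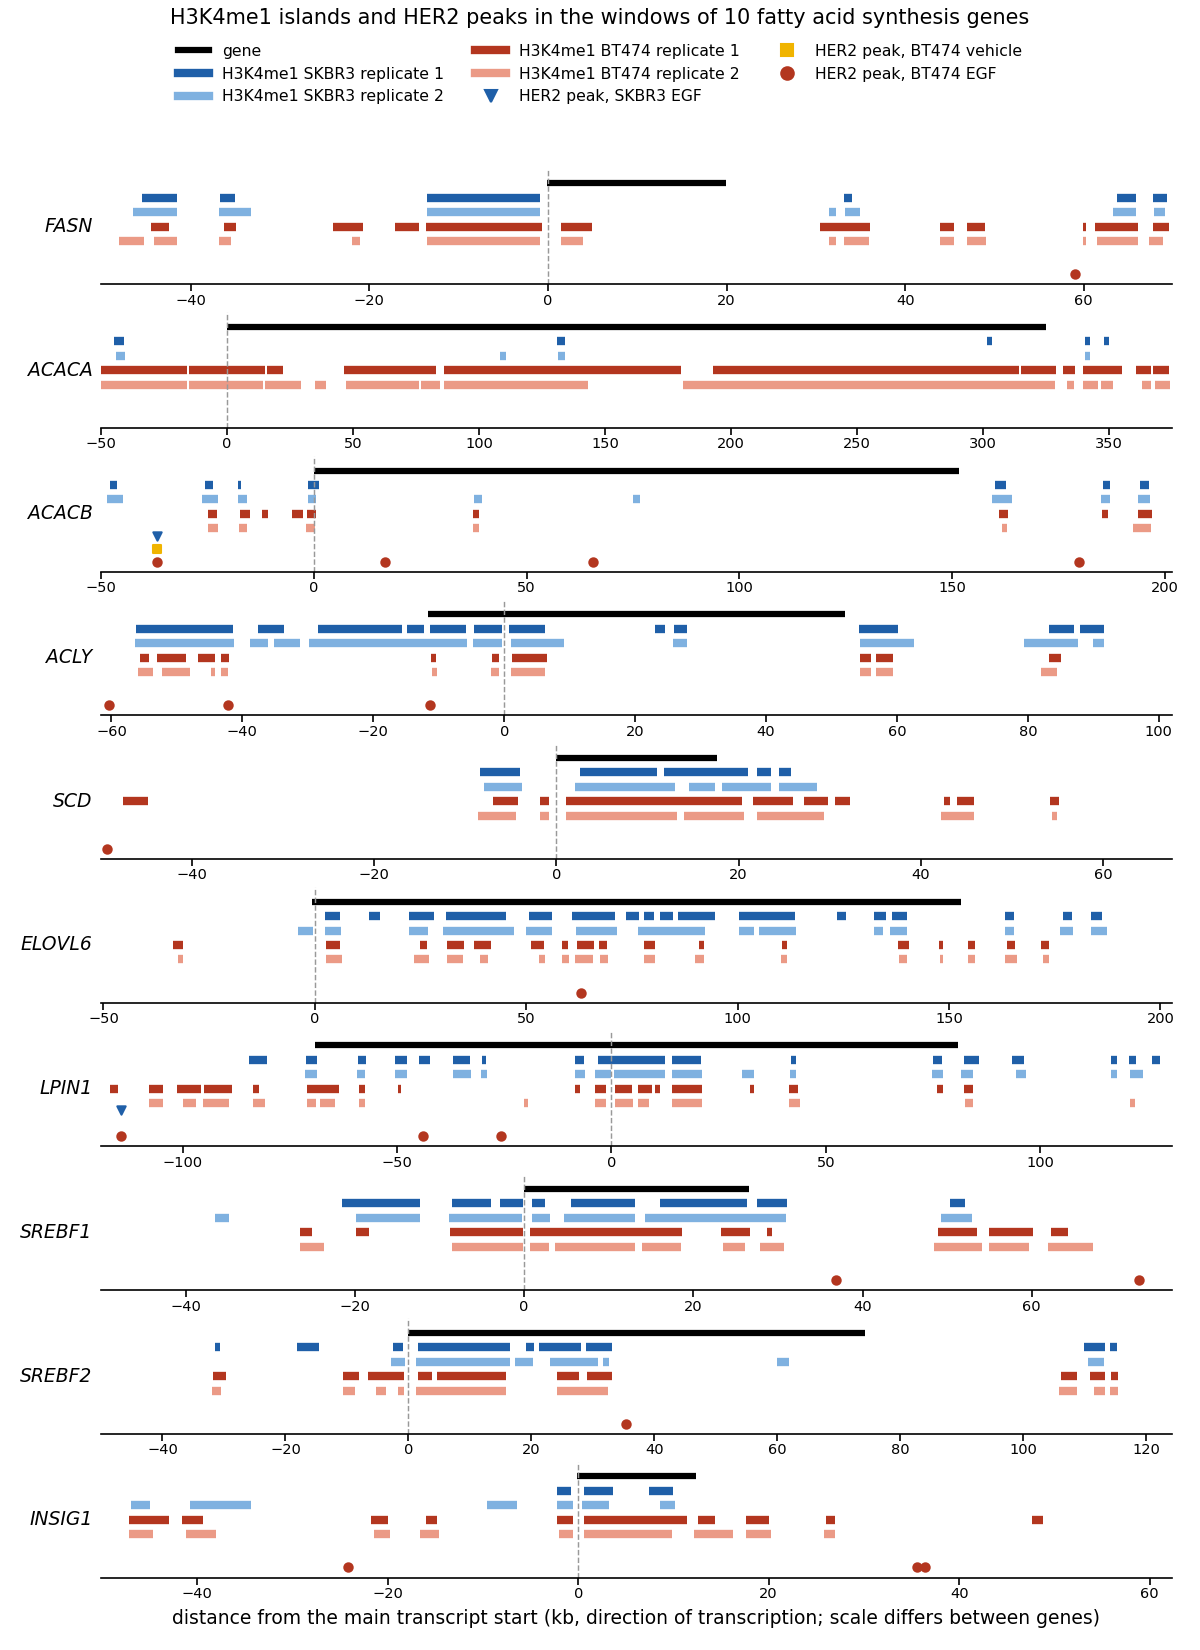
H3K4me1 islands of each library and HER2 peaks in the windows of the 10 genes, by distance from the start of the main transcript (x axis, kb, in the direction of transcription, with its own scale for each gene). The black bar is the gene, blue and red bars are islands of SKBR3 and BT474, and symbols are HER2 peaks, of which the SKBR3 vehicle list had 0 in these windows. The BT474 islands over ACACA reach 147.6 kb in length, and most of the other genes have islands on either side of a bare start.

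The neighbourhood of several members moved with them. In the 500 kb on each side of the ACACA window, 4.54 and 4.52% lay in islands in SKBR3 and 30.3 and 30.7% in BT474. Around ACLY the order was the other way, with 54.5 and 61.2% in SKBR3 and 22.9 and 21.6% in BT474. The surroundings of SCD (1.42 and 1.16% in SKBR3, 12.7 and 13.6% in BT474), INSIG1 (5.66 and 4.70%, 17.7 and 17.6%) and ELOVL6 (14.0 and 14.6%, 7.10 and 6.48%) leaned the same way as the genes. Those of FASN did not, with 30.8 and 34% in SKBR3 and 31.4 and 28.4% in BT474, libraries that overlap.

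In steps of 100 kb, SKBR3 cover around ACLY fell from 71.4 and 65.8% in the step centred at -0.475 Mb from the start to 9 and 10.2% in the next step outward, at -0.575 Mb. BT474 showed no such edge there, with 16.4 and 17.6% and then 22.4 and 21.8%. The 4 steps that hold ACACA had 74.0 to 97.2% cover in BT474 and 0 to 6% in SKBR3. In BT474, cover was 93.2 and 92.8% in the next step, at -0.083 Mb, and then 18.2 to 35.0% in the steps from -0.183 to -0.383 Mb. No library had an island at -0.483 Mb, and a second block, of 52.4 to 99.0% in BT474, lay between -0.583 and -1.28 Mb. Within islands, reads per kb relative to the library were 0.746 and 0.681 in SKBR3 and 1.88 and 1.90 in BT474 in the ACACA window. In the 500 kb on each side they were 0.701 and 0.686 in SKBR3 and 1.35 and 1.33 in BT474. In the 2 Mb on each side they were high in both lines (2.29 and 2.47, 2.46 and 2.38). At ACACA, scaling by the 2 Mb thus does not carry the difference between the lines in the 500 kb. With scaling by the density in the 2 Mb, the log2 fold changes were -6.26 for ACACA (edgeR adjusted p = 0.000165), 2.11 for ACLY (0.000285), and -1.32 for INSIG1 (0.0205). ERBB2, of which both lines carry extra copies, lies between ACACA and ACLY on chromosome 17. In the steps from -0.983 to -1.28 Mb of ACACA, on the side of ERBB2, reads per kb of island relative to the library were 2.64 to 4.25 in BT474. In SKBR3 they were 0.643 to 0.794 there. DNA copy number was not analysed here, and its part and that of the surroundings in these results were not tested.

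**Figure D4:**
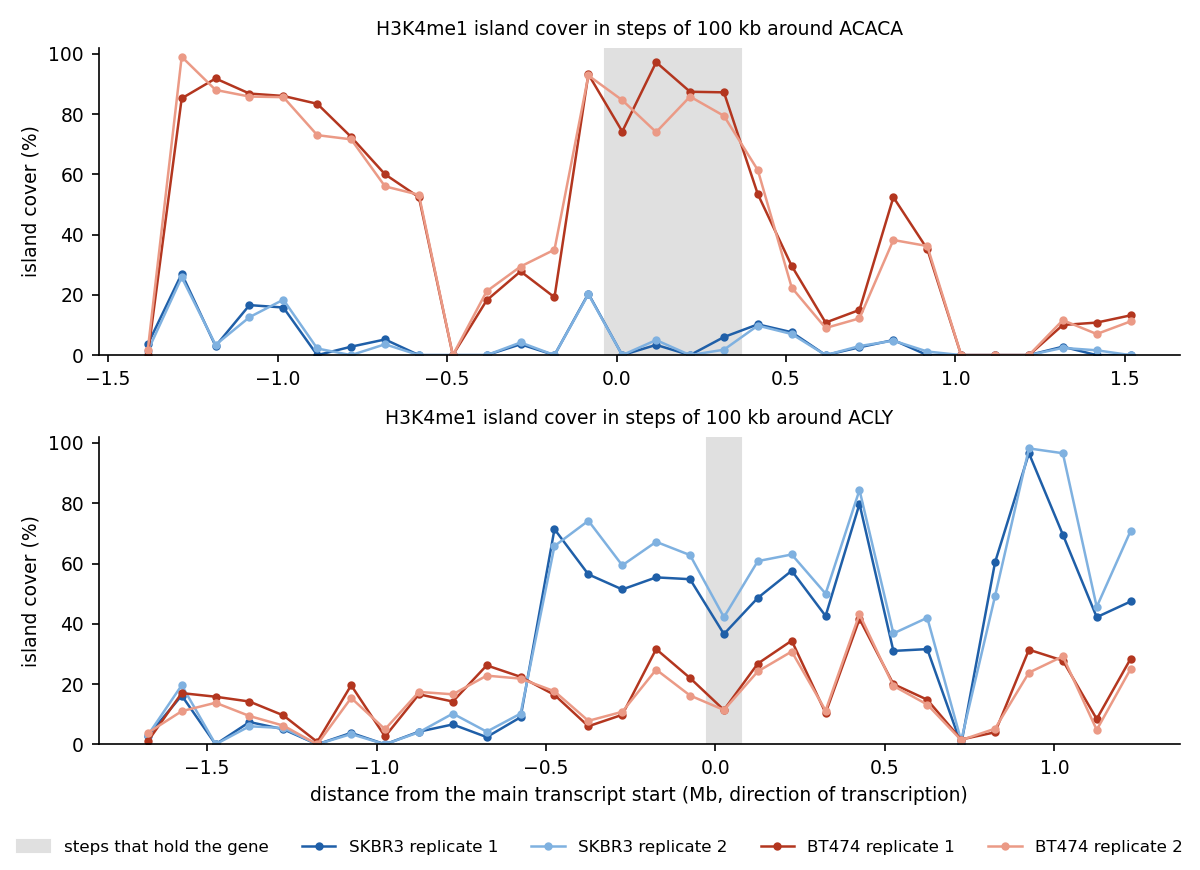
H3K4me1 island cover (y axis, percent) in steps of 100 kb around ACACA (top) and ACLY (bottom), by distance from the start of the main transcript (x axis, Mb, in the direction of transcription), 1 line per library, with the steps that hold the gene shaded. The BT474 libraries are above the SKBR3 libraries over ACACA and in most steps around it. The SKBR3 libraries are above the BT474 libraries from the -0.475 Mb step of ACLY through the gene and beyond, except at 0.725 Mb.

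At the start of the main transcript, islands were rarer than 1 kb to either side, among the members and among all genes. The 5′ end of the gene lay in an island at 2 of 10 members in SKBR3 replicate 1 (13.0% of all genes), 4 in SKBR3 replicate 2 (15.0%), 3 in BT474 replicate 1 (18.6%) and 3 in BT474 replicate 2 (17.1%). For the start of the main transcript the numbers were 2, 1, 2 and 2 of 10, beside 10.5, 12.4, 15.9 and 14.8% of all genes. At 1 kb before that start, by contrast, 7, 8, 8 and 8 of 10 members lay in an island, beside 26.8, 29.0, 34.7 and 33.2% of all genes. At 1 kb after it, 5, 3, 4 and 4 of 10 members did, beside 27.9, 29.3, 41.9 and 40.4% of all genes. The larger share before the start held at 1 kb and not at every distance. At 2600 bases, 4, 6, 6 and 4 members lay in an island before the start and 5, 7, 9 and 9 after it. Of all genes, 21.7, 23.2, 21.4 and 20.7% did at 2600 bases before, and 33.0, 33.9, 38.7 and 37.5% after. The dip at the start was present in all genes too. These positions were chosen after their values were seen, and no test was made.

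**Figure D5:**
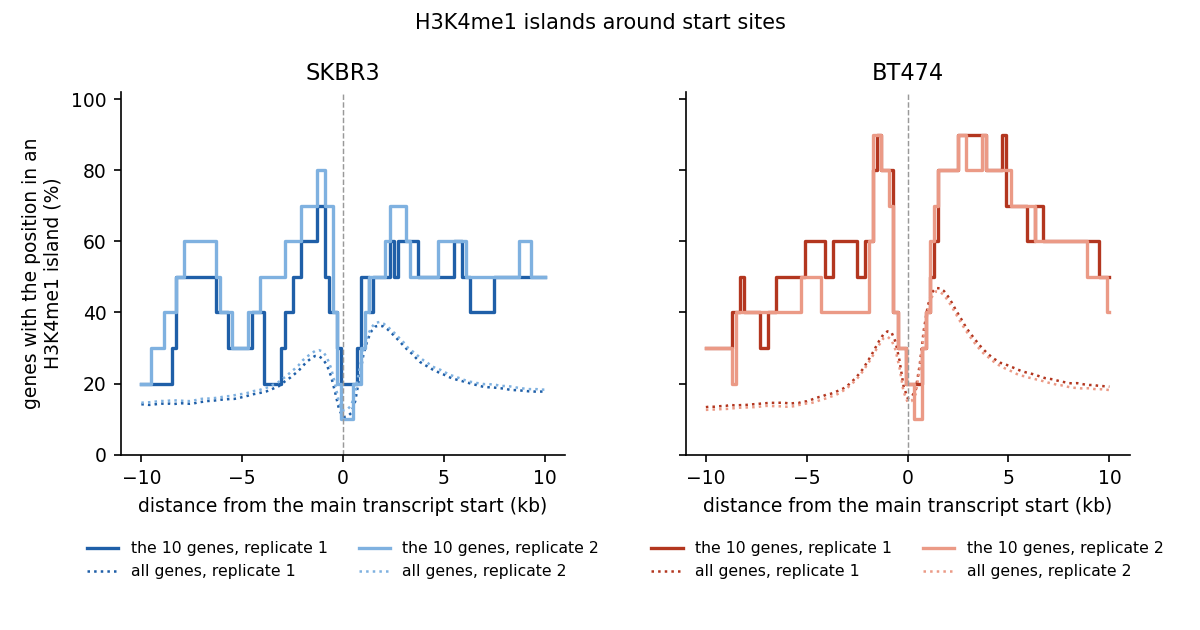
Share of genes with a position in an H3K4me1 island (y axis, percent) by distance from the start of the main transcript (x axis, kb), for the 10 genes (solid steps of 10%) and all protein-coding genes (dotted), in SKBR3 (left) and BT474 (right), 1 line per library. Both sets dip at the start, and at 1 kb before it 7 to 8 of the 10 genes lie in an island.

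Only the first starts of ACACB and LPIN1 were in islands in all 4 libraries. The start of ACACA lay in an island in both BT474 libraries, 100% of the 2 kb around it being covered, and the nearest SKBR3 islands ended 40.7 and 40.3 kb before it. At the starts of the main transcripts of FASN, SCD, SREBF1, SREBF2 and INSIG1 no library had an island. The bare stretch was narrow at SREBF1, where over the 4 libraries islands ended 0.101 to 0.301 kb before the start and began again 0.7 to 0.9 kb after it. At INSIG1 the gap ran from 0.588 to 0.788 kb before the start to 0.413 to 0.613 kb after it, and at SREBF2 from 0.509 to 0.909 kb before to 1.29 to 1.49 kb after. FASN and SCD differed between the lines on 1 side. After the FASN start the next island was at 1.51 kb in both BT474 libraries and at 33.1 and 31.5 kb in SKBR3. Before the SCD start it was at 0.79 kb in both BT474 libraries and at 3.99 and 3.79 kb in SKBR3. For ACLY the annotated 5′ end is 11.6 kb before the start of the main transcript, and the latter was in no island. For LPIN1 the main transcript starts 69.0 kb after the 5′ end of the gene, and that start was in an island in 1 library, SKBR3 replicate 1.

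The RefSeq promoter table (GRCh38.p14) held 15 promoters of 9 members and none of FASN, whose promoter was therefore not searched. Each had 250 bases before and 50 after a start, and 14 of the 15 matched hg19 exactly and once. The GC box GGGCGG, the site of Sp1-type factors, was sought on both strands. The 3 matched promoters without it, at a start within ACACA and at the first starts of ACACB and LPIN1, were in an island in 3, 4 and 4 libraries. Of the 11 matched promoters with it, 8 were in no island in any library, among them an overlapping pair of ACLY promoters. The other 3, at later starts of ACACB, ACACA and LPIN1, were in an island in 3, 2 and 1 libraries. The ACACA starts lie within a gene body of which 87.3 and 83.1% was in islands in the BT474 libraries. The share of all promoters in islands, with and without the box, was not counted, so these counts are not read as a result about the members. Among all promoters of the table, 45.0% held the box, as did 12 of these 15. No test was made of this sorting of starts, which was noticed in the data. The 100 bases before 3 of these starts, picked as examples of both kinds, are shown with GC boxes in capitals and run 5′ to 3′ along the gene.
ACACB first start (chr12:109116487-109116586, + strand): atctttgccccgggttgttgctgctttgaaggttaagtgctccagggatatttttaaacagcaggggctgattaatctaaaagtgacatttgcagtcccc
LPIN1 first start (chr2:11677444-11677543, + strand): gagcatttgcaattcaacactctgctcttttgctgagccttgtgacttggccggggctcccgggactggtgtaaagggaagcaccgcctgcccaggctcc
SCD start (chr10:100347133-100347232, + strand): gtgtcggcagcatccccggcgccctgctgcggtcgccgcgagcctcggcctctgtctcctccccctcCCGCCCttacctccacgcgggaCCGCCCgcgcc
The ACACB start is at 46.0% G and C over its promoter and the LPIN1 start at 60.0%, and neither has a box. The SCD start is at 66.3% with 2 boxes shown and no island over the start in any library. The ELOVL6 promoter, which has a box and no island over its start in any library, is at 57.3%, below that of LPIN1.

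A form of the binding site of the SREBF products was searched as TCACNCCAC on both strands. It was present in 1 of the 15 promoters, that of SREBF2, and in 1.13% of all 35116 promoters. Other forms were not sought, and FASN was not among the promoters searched. The match starts 133 bases before the SREBF2 start and is followed by a CCAAT box, the site of NF-Y, on the other strand. CCAAT was in 8 of the 15 promoters and in 34.6% of all, and the E-box CACGTG in 1 (INSIG1) and in 7.26% of all. The stretch of SREBF2 from -163 to -84 is shown because it holds both sites, in capitals, within the bare start of a gene that had islands on either side.
SREBF2 upstream stretch (chr22:41832942-41833021, + strand): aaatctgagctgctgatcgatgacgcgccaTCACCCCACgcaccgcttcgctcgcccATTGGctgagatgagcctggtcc
A match of letters is a description and does not show that a factor was bound there.

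In 3 of the 4 HER2 lists, 0 to 2 of the 10 members had a peak in their window, and in the fourth 9 had one. The SKBR3 vehicle list had 0 peaks in the 10 windows, where 12.2% of all genes had one, and the SKBR3 EGF list had 2 peaks at 2 members (13.0% of all genes). In BT474, vehicle gave 1 peak at 1 member (35.4%) and EGF gave 19 peaks at 9 members (72.5%), all but ACACA, whose start was 469.5 kb from the nearest peak of that list. The ACACA window was the widest of the 10, at 425.0 kb. The study removed regions of high signal in the input of each line, and whether the ACACA window holds such regions was not tested. Windows of the members held 0, 1.00, 0.501 and 9.53 peaks per Mb in these lists, beside 0.855, 0.830, 2.82 and 9.66 over the genome. When each list was held to its 2520 peaks with the highest scores, 0, 2, 1 and 1 members had a peak. Counts this small are not read as a result about the members. No condition had a replicate, so vehicle and EGF were not compared by a test.

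None of the 10 members had a HER2 peak within 10 kb of the start of its main transcript in any list. Among all genes, 1.68% (SKBR3 vehicle), 1.91% (SKBR3 EGF), 5.86% (BT474 vehicle) and 18.9% (BT474 EGF) had one. The closest was in ACLY (chr17:40086467-40086694), 11.4 kb before the main start and 0.214 kb inside the annotated 5′ end, with a score of 35, above 22.4% of the BT474 EGF list. Islands of both SKBR3 libraries overlapped it, and none of BT474, the line in which the peak was called. The next was a peak in an ACACB intron 16.6 kb after the start (chr12:109570894-109571162), with a score of 118.5, above 82.2% of the list. The scale of the score is not stated, so scores are set only against others of the same list.

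A pair of sites was shared between the lines. An intron of USP30, 36.7 to 36.8 kb before ACACB, had a peak in 3 lists, SKBR3 EGF (chr12:109517561-109517760, score 125.5, above 48.7% of its list), BT474 vehicle (score 153, above 87.6%) and BT474 EGF (score 230, above 94.6%). In the BT474 EGF list this was the highest score of the 19 peaks in the members' windows, whose median was 36.5. The other site, in an intron of GREB1 45.4 kb before the 5′ end of LPIN1, had a peak in SKBR3 EGF (chr2:11772229-11772428, score 78.5, above 27.9%) and in BT474 EGF (score 26.5, above 10.9%). USP30 encodes a mitochondrial deubiquitinase and GREB1 an oestrogen-responsive cofactor, and neither site had an island of either line.

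The sequences of these shared sites and of the ACACB intron peak are shown, 50 bases to each side of the midpoint, in hg19 and with the core CGTNTGC, sought on both strands, in capitals.
USP30 intron site upstream of ACACB, SKBR3 EGF list (chr12:109517611-109517711, + strand): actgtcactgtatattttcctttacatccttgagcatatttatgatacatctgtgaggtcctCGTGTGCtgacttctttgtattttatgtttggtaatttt
GREB1 intron site upstream of LPIN1, SKBR3 EGF list (chr2:11772279-11772379, + strand): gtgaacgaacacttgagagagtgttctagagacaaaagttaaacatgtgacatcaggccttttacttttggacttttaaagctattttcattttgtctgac
ACACB intron site, BT474 EGF list (chr12:109570978-109571078, + strand): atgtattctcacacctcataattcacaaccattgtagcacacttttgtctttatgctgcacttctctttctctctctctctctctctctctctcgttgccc
The core was in the USP30 site for SKBR3 EGF and BT474 vehicle, and inside the whole peak but outside these 101 bases for BT474 EGF. It was also in the ACLY peak, and was not found in the GREB1 site or in the ACACB intron. Among all peaks, 3.47% (SKBR3 vehicle), 12% (SKBR3 EGF), 12% (BT474 vehicle) and 7.48% (BT474 EGF) held it in windows of this length. The ACACB intron peak holds a run of CT repeats.

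Of the HER2 peaks in these windows, 2 lay in an H3K4me1 island of the same line, too few to set apart from the shares of the whole lists. Neither SKBR3 EGF peak was in an SKBR3 island, beside 17.4% of that list, and the BT474 vehicle peak was in none, beside 15.4%. For BT474 EGF, 2 of 19 peaks were in BT474 islands, beside 14.0% of that list. These were in an exon of ODAD4, 30.7 kb before the 5′ end of ACLY (score 17.5), and in an ELOVL6 intron 63.1 kb after the main start (score 39.5), and all 4 H3K4me1 libraries had an island at both. The ELOVL6 peak had the core CGTNTGC within its whole length.

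Beyond the 10 members, 50 further genes of lipid synthesis, uptake and their control were read in the same fit, and 11 (22.0%) were higher in SKBR3, beside 34.3% of all genes tested. Another 24 (48.0%) were higher in BT474, beside 38.0% of all genes tested, and 15 were not called. Their median log2 fold change was -0.28, beside -0.11 for all genes. On the SKBR3 side, ACSL5, which activates long-chain fatty acids, was at 2.72 ± 0.094 (log2 fold change ± SE), and PPARGC1B, a coactivator, at 1.17 ± 0.048. DGAT2, of triglyceride synthesis, and the fatty acid transporter CD36 were also higher in SKBR3 (0.70 and 0.85). GPAM, of glycerolipid synthesis, had 4.43 and 5.44% of its window in islands in SKBR3 and was listed at 0 in BT474.

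On the BT474 side were the desaturases FADS1 (-1.83 ± 0.13) and FADS2 (-1.27 ± 0.13), the malic enzyme ME1 (-2.0 ± 0.31), a source of NADPH, and MLX, a partner of the carbohydrate response factor (-2.0 ± 0.30). HMGCS1, of sterol synthesis, was also higher in BT474 (-1.0 ± 0.088), as were the proteases MBTPS1 (-0.96 ± 0.11) and MBTPS2 (-1.29 ± 0.097) that release the SREBF products. The edgeR adjusted p of the genes named in these lines was at most 0.0041. FABP5, a fatty acid binding protein, had 24.2 and 23.0% of its window in islands in BT474 and was listed at 0 in SKBR3.

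HER2 peaks within 10 kb of the main start were found at 1, 1, 3 and 12 of these 50 genes in the SKBR3 vehicle, SKBR3 EGF, BT474 vehicle and BT474 EGF lists, shares near those given for all genes. ELOVL2, an elongase of polyunsaturated fatty acids, had a peak 7.08 to 7.185 kb after its start in 3 lists, both of SKBR3 and BT474 EGF. In BT474 EGF, peaks lay 0.80 kb before the ELOVL5 start and 0.754 kb before the ACSL4 start. STK11, the kinase that activates AMPK, had a peak 2.54 kb before its start in BT474 vehicle, and MBTPS1 had one 9.26 to 9.28 kb before its start in both BT474 lists.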

How the data were processed

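HER2 ChIP-exo and H3K4me1 ChIP-seq lists of SKBR3 and BT474 were used, with groups taken from the labels. Per the study's methods, reads were mapped to hg19, HER2 peaks were called with MACS2 and H3K4me1 islands with SICER against input DNA of the line, and blacklisted and high-input regions were removed. The submitters' processing notes name BWA 0.5.9, MACS 1.4.1, SICER 1.1 and GRCh37. The lot of the HER2 antibody differed between the lines. H3K4me1 values are the authors' count of whole reads per island, not scaled for depth, for islands above the caller's threshold only. HER2 values are the score that the authors deposited for each peak, on a scale that is not stated.

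Genes were those of GENCODE 44 mapped to GRCh37. Island reads were shared out by overlap with each window, rounded, scaled by TMM and tested between the lines in edgeR 4.0.16 (R 4.3.3) with no covariate, after its filter on low counts, which left 18845 of 20163 genes. The standard errors (SE) were derived from this test, as the log2 fold change without its sign divided by the square root of the F statistic. Windows of neighbouring genes overlap, so genes are not independent. Motif matches were exact. Alternatives covered flanks, scaling, filters, DESeq2 1.42.0, the replicate number as a block and each library left out.

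The members and lists were chosen with earlier results of these data known. All 10 members were described. Of a further list of 50 genes, those called or with a HER2 peak within 10 kb of the start could be named. HER2 peaks near a start or in several lists were described one by one. A few genes of that list are not reported here.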

Additional observations from a re-analysis of the deposited data

How the results depend on the processing

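The 6 members called between the lines kept their direction under every alternative, and FASN, ACACA, ACLY, SCD and ELOVL6 kept their call as well. The sizes moved with the window. With flanks of 100 kb FASN was at -0.21, ACACA at -5.05 and INSIG1 at -2.30, and with flanks of 10 kb ACACA was at -6.99. With the gene body alone no fold is given for FASN, whose body had no island in SKBR3. INSIG1 was at -1.52 (adjusted p = 0.0515) without BT474 replicate 1 and at -1.49 (0.0541) without BT474 replicate 2. The log2 fold change of SREBF1, -0.02 with all libraries, was 0.025 with the gene body alone, 0.047 with flanks of 10 kb, and ran from -0.11 to 0.051 with 1 library left out. That of SREBF2, 0.03, was -0.062 without TMM, -0.040 over all annotated genes, -0.069 without the smallest islands, and ran from -0.082 to 0.12 with 1 library left out. ACACB ran from -0.032 to 0.70 with 1 library left out, and was at 0.88 with the gene body alone. None of these was called at SREBF1, SREBF2 was called with the gene body alone, and ACACB was called without SKBR3 replicate 1. The cause was not tested.

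With the gene body alone, 15497 genes were tested. Of these, 4060 genes and 4 members (ACLY, ELOVL6, LPIN1 and SREBF2) were higher in SKBR3. In BT474, 5374 genes and 4 members (FASN, ACACA, SCD and INSIG1) were higher. Over all annotated genes, more of which were tested, 17843 were higher in SKBR3 and 22537 in BT474. With the replicate block 5767 genes were higher in SKBR3 and 6277 in BT474, and 2 and 4 members. The replicate numbers did not pair the samples (correlation of the replicate differences -0.0284 over 18845 windows).

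The start was in an island of both libraries of a line at 2 members in SKBR3 and 3 in BT474. Any island within 1 kb gave 7 and 9, any transcript start 5 and 7, and the main transcript start, an alternative chosen after seeing the data, 1 in SKBR3. Shares of all genes were not counted for islands within 1 kb or for any transcript start. Those counts are therefore not read as a result about the members. With 1 replicate left out SKBR3 had 2 to 4. For HER2, the gene body alone and flanks of 10 kb each left 0 peaks at 0 members in SKBR3 EGF and in BT474 vehicle, and 7 peaks at 5 members in BT474 EGF. Flanks of 100 kb gave 4 peaks at 3 members in BT474 vehicle, and equal numbers of peaks left 1 peak at 1 member in BT474 EGF. Shares of all genes were not counted for these HER2 alternatives either.

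Islands are listed only above a caller's threshold, so a weak mark reads as 0 and a fold change between a covered and a bare window depends on that threshold. The HER2 lists differ in length, carry no depth and have no replicate, so differences between treatments and lines in members with a peak were not tested.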
